A study of Mus musculus with 6 samples.

Results

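The transcripts of 10 receptors that help T cell activation were measured in T cells of the mouse spleen, CD4+Lrig1+ against CD4+Lrig1-. The genes were taken as a fixed list: *Cd28*, *Icos*, *Cd226*, *Cd2*, *Slamf1*, *Slamf6*, *Slamf7*, *Ly9*, *Cd84* and *Cd48*. All 10 were found among the 45777 genes of the deposited tables and all 10 passed the filter on low counts, as did 16123 genes in all. The cells were sorted by flow cytometry from female C57BL/6 mice, an inbred laboratory strain, at 7 weeks of age, and the 2 groups were separated by surface Lrig1, a leucine-rich repeat protein. The labels give no treatment or genetic change. The labels do not say how many animals gave each library. Each of 2 tables held 1 Lrig1+ and 1 Lrig1- library, named set 1 and set 2 here, so that n = 2 for each group. The libraries held 44865070 to 59977951 estimated counts.

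Full activation of a T cell needs a signal from the antigen receptor and a second, costimulatory signal. CD28 binds CD80 and CD86 on antigen-presenting cells and ICOS binds ICOS ligand, and both recruit phosphoinositide 3-kinase. CD2 strengthens adhesion by binding CD48 in the mouse, CD226 binds the poliovirus receptor and nectin-2, and the SLAM family receptors mostly bind their own kind on the neighbouring cell and signal through the adaptor SAP, encoded by *Sh2d1a*.

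Of the 10 receptors, *Icos*, *Slamf1* and *Slamf6* stood higher in both Lrig1+ libraries than in either Lrig1- library. *Icos* was 2.15 times as high in set 1 and 2.71 times in set 2, *Slamf1* 2.37 and 2.64 times, and *Slamf6* 1.63 and 1.93 times, as ratios of CPM (estimated counts per gene scaled to library size by TMM, the trimmed mean of M-values). *Cd2* was 1.34 and 1.33 times as high. The other 6 receptors had log2 ratios between -0.32 and 0.22 in both sets, with *Cd48*, *Cd28* and *Cd84* above 1 in both sets and *Ly9*, *Cd226* and *Slamf7* below 1 in both. The ratio was thus above 1 in both sets for 7 receptors and below 1 in both for 3, beside 35.9% and 41.3% of all tested genes.

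Whether these differences passed a test depended on the set. In edgeR's quasi-likelihood test of the 2 groups with no term for the set, none of the 10 genes had an adjusted p under 0.05, and neither did any of the 16123 genes (0.0%). At an unadjusted p under 0.05 that test held 2 of the 10, *Slamf1* and *Icos*, beside 674 genes higher in Lrig1+ cells (4.18%) and 227 lower (1.41%). With a term for the set (the table block), 4 of the 10 rose, *Slamf1*, *Icos*, *Slamf6* and *Cd2*, and 0 fell, against 14.6% of all tested genes called higher and 12.8% called lower. The same 4 were called by the Wald test of DESeq2 (11.5% of genes higher, 12.2% lower) and by limma on log2(FPKM + 1) (11.9% higher, 6.3% lower), each with the set term. In the text below, "rose", "fell" and "changed" refer to the edgeR test with the set term, and no gene so named passed the edgeR test without it. The median log2 fold change of the 10 genes was 0.17, beside -0.036 over all tested genes, in that fit. An exact permutation test of 2 libraries against 2 cannot give a p under 0.333. Without the set term the p-values measure the spread between the 2 libraries of a group. With it they measure only how far the ratio of Lrig1+ to Lrig1- differed between the 2 sets. The variance of a gene is then borrowed largely from other genes, and narrow intervals rest on that. Either spread may be technical.

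Within a set the libraries resembled each other more than within a group. Across tested genes the correlation of log2 CPM was 0.98 and 0.97 for the 2 libraries of a set and 0.93 for both pairs of the same group from different sets. Among the receptors, *Cd2* and *Cd48* differed most between sets. They were 0.99 and 0.97 log2 units higher in set 2, while the other 8 differed by -0.22 to 0.35.

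The label was checked on the sorted gene and on the T cell markers. *Lrig1* was at 221 and 129 CPM in the Lrig1+ libraries and at 75.4 and 36.7 CPM in the Lrig1- libraries of sets 1 and 2. *Cd3d*, *Cd3e*, *Cd3g* and *Cd4* summed to 1907 to 3230 CPM in every library. The regulatory T cell (Treg) markers *Foxp3*, *Il2ra* and *Ikzf2* summed to 1594 and 1298 CPM in Lrig1+ cells and to 136 and 66.3 CPM in Lrig1- cells. The follicular helper T cell markers *Cxcr5*, *Bcl6* and *Pdcd1* summed to 236 and 408 CPM against 50.2 and 103 CPM, and the 4 naive T cell markers were lower in Lrig1+ cells in both sets (2319 and 3008 CPM against 3656 and 5402 CPM). *Icos*, *Slamf1* and *Slamf6* are also known from Treg and follicular helper T cells, and the part of these subsets in the receptor differences was not tested. In bulk RNA, more cells of a type and more RNA per cell cannot be told apart.

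The 10 B cell markers summed to 87.7 and 68.3 CPM in the Lrig1+ and Lrig1- libraries of set 1 and to 367 and 717 CPM in those of set 2, and none was at 0. The 5 plasma cell markers summed to 5.19 and 4.70 CPM in set 1 and to 56.3 and 111 CPM in set 2, with *Tnfrsf17* at 0 in both libraries of set 1. The 6 natural killer markers (29.0 to 71.5 CPM) and the 2 *Cd8* chains (14.1 to 97.3 CPM) were low, and the 7 myeloid markers ran from 32.9 to 208 CPM. Both *Cd8* chains were lower in Lrig1+ cells in both sets, as were 5 natural killer markers, while *Eomes* was higher. Of the myeloid markers, 2 were higher in both sets and 2 lower in both. The 5 dendritic cell markers moved with the group, at 9.65 and 6.15 CPM in Lrig1+ cells of sets 1 and 2 and at 27.6 and 37.7 CPM in Lrig1- cells, and 4 of the 5 were lower in Lrig1+ cells in both sets. The part of these cells in the receptor differences was not tested.

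ICOS, a relative of CD28 that appears on activated T cells and helps follicular helper and regulatory T cells, gave one of the largest differences. *Icos* (chr1:60960773-61000322, GRCm38) was at 152 and 217 CPM in the Lrig1+ libraries of sets 1 and 2 and at 70.6 and 80.2 CPM in the Lrig1- libraries. The Lrig1+ values both exceeded those of Lrig1- cells, at means of 184 ± 46.0 and 75.4 ± 6.76 CPM (SD, n = 2). The log2 fold change was 1.27 (95% interval 1.05 to 1.50, adjusted p = 0.000137) with the set term and 1.29 (SE 0.34, adjusted p = 0.685) without it. Of the 4 *Icos* transcripts in the tables, the principal one took 88.4% to 98.4% of the counts in each library.

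*Cd28*, the founding costimulatory receptor, lies in the same cluster of chromosome 1 (chr1:60746388-60773359), and the stretch from *Cd28* to *Icos* spans 253.9 kb. It was at 377 and 432 CPM in Lrig1+ cells and at 323 and 409 CPM in Lrig1- cells. The groups overlapped, since the Lrig1- library of set 2 lay above the Lrig1+ library of set 1. With the set term the log2 fold change was 0.15, with an interval of -0.053 to 0.36 (adjusted p = 0.246), an interval that does not reach the lower bound for *Icos*.

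CD2 is an adhesion and signalling receptor of all T cells. Its transcript was the most abundant of the 10 when scaled by transcript length (TPM, given below). In CPM, *Cd28* lay above *Cd2* in both libraries of set 1. *Cd2* (chr3:101275908-101287939) was at 344 and 683 CPM in Lrig1+ cells of sets 1 and 2 and at 257 and 514 CPM in Lrig1- cells. The groups overlapped, because both libraries of set 2 exceeded both of set 1. The ratio within the set was nearly the same in both, at 0.42 and 0.41 on the log2 scale, and with the set term *Cd2* rose by 0.42 (interval 0.21 to 0.62, adjusted p = 0.0113). Without the set term the fold change was 0.41 with an SE of 0.60, and leaving out the Lrig1+ library of set 2 turned it to -0.17.

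CD226, also called DNAM-1, is an activating adhesion receptor of T and natural killer cells. *Cd226* was at 70.0 and 72.9 CPM in Lrig1+ cells and at 73.4 and 87.2 CPM in Lrig1- cells. Both Lrig1+ libraries lay below both Lrig1- libraries, by a margin of under 1 CPM, and the log2 difference of -0.16 (interval -0.35 to 0.020, adjusted p = 0.166) did not pass the test.

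**Figure D1:**
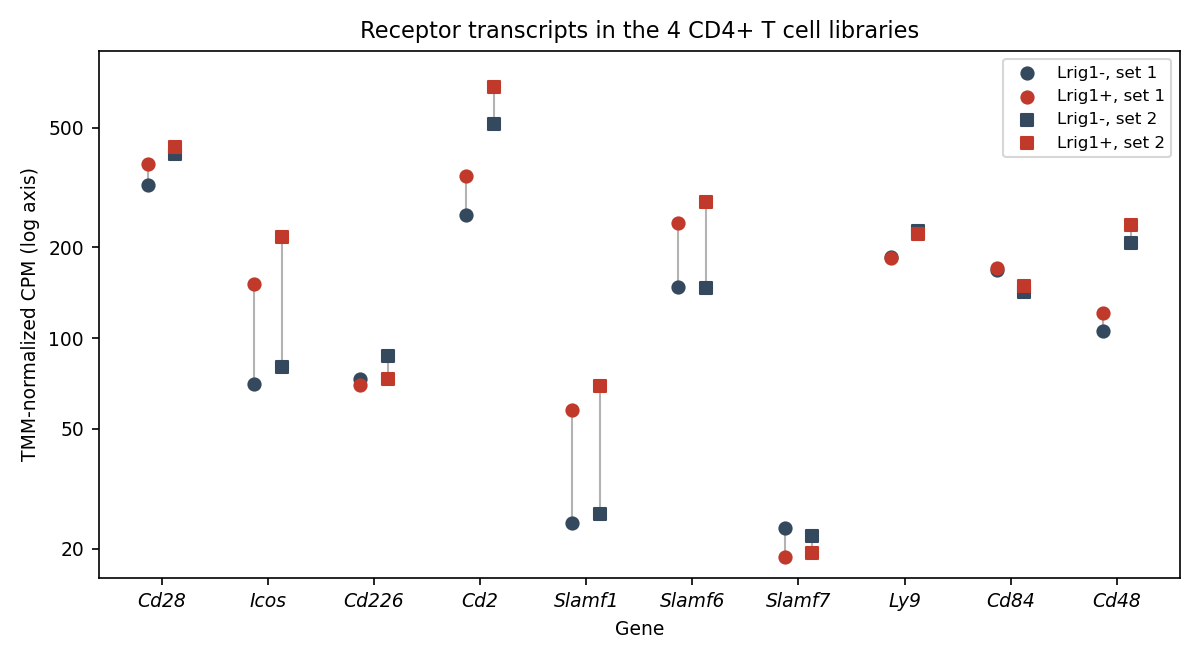
TMM-normalized CPM (log axis) of the 10 receptor genes in the 4 libraries; circles are set 1, squares set 2, and grey lines join the 2 libraries of a set. The Lrig1+ libraries sit above both Lrig1- libraries for *Icos*, *Slamf1* and *Slamf6*, while *Cd2* and *Cd48* shift mainly between sets.

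The 6 SLAM family members of the list lie side by side on chromosome 1, within 360.3 kb from *Ly9* to *Slamf6*. *Slamf1*, the receptor that named the family and that is also found on antigen-presenting cells, had the largest fitted difference of the 10, with an interval that overlaps that of *Icos*. *Slamf1* (chr1:171767131-171801184) was at 57.9 and 69.2 CPM in Lrig1+ cells of sets 1 and 2 and at 24.4 and 26.1 CPM in Lrig1- cells. The 2 groups did not overlap, at 63.5 ± 7.99 and 25.3 ± 1.24 CPM (SD, n = 2). The log2 fold change was 1.33 (interval 1.12 to 1.53, adjusted p = 7.87e-05) with the set term and 1.33 (SE 0.28, adjusted p = 0.635) without it.

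*Slamf6*, known as Ly108 in the mouse and a regulator of follicular helper T cells, was the next. *Slamf6* (chr1:171917458-171948958) was at 241 and 283 CPM in Lrig1+ cells of sets 1 and 2 and at 148 and 146 CPM in Lrig1- cells. The Lrig1- libraries were within 2 CPM of each other and both Lrig1+ libraries lay above them, with means of 262 ± 29.6 and 147 ± 1.31 CPM (SD, n = 2). The log2 fold change was 0.83 with the set term (interval 0.62 to 1.03, adjusted p = 0.000605) and 0.83 without it (SE 0.31, adjusted p = 0.922).

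*Cd48*, which encodes the lipid-anchored ligand of CD2 and CD244, was at 121 and 237 CPM in Lrig1+ cells and at 106 and 207 CPM in Lrig1- cells (chr1:171681245-171705258). Its log2 difference was 0.20 in each set, and the test gave 0.20 with an interval of 0.025 to 0.37 and an adjusted p of 0.0878. As with *Cd2*, both set 2 libraries exceeded both set 1 libraries.

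*Cd84* and *Ly9*, 2 self-binding receptors of lymphocytes, were close to equal. *Cd84* (chr1:171839697-171890718) was at 171 and 149 CPM in Lrig1+ cells and at 168 and 143 CPM in Lrig1- cells, with a log2 difference of 0.044 (interval -0.13 to 0.21). *Ly9* (chr1:171588613-171607410) was at 185 and 222 CPM against 186 and 227 CPM, with a log2 difference of -0.020 (interval -0.20 to 0.16). The sign for *Ly9* turned to 0.0295 with log2(FPKM + 1) in place of scaled counts. For both genes these intervals lie below the lower bounds for *Slamf1* and *Slamf6*, between which *Cd84* lies.

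*Slamf7*, a receptor known best from plasma cells and natural killer cells, was the least abundant member. *Slamf7* (chr1:171632403-171653037) was at 18.7 and 19.3 CPM in Lrig1+ cells and at 23.4 and 22.1 CPM in Lrig1- cells. The Lrig1+ libraries lay below the Lrig1- libraries in both sets, and the log2 difference of -0.26 (interval -0.49 to -0.030, adjusted p = 0.0916) missed the threshold. Lrig1+ values without overlap were thus higher for 3 and lower for 2 of the 10 receptors, beside 14.3% and 11.8% of all tested genes.

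**Figure D2:**
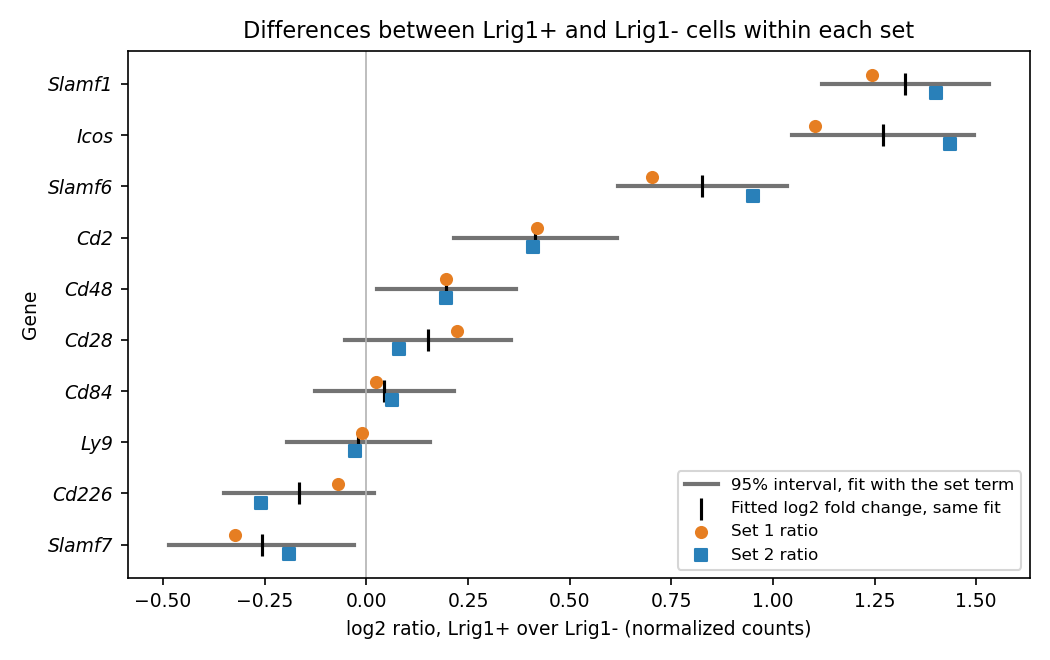
Log2 ratio of Lrig1+ to Lrig1- for each receptor in set 1 (circles) and set 2 (squares), with the fitted value (black tick) and its 95% interval (grey bar) from the fit with the set term. The intervals of *Slamf1*, *Icos*, *Slamf6*, *Cd2* and *Cd48* lie above 0, that of *Slamf7* lies below it, and those of *Cd28*, *Cd84*, *Ly9* and *Cd226* cross it; *Cd48* and *Slamf7* had adjusted p of 0.0878 and 0.0916.

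Levels of different genes were compared as TPM, the authors' values scaled by transcript length and library. *Cd2* ranked first in all 4 libraries, at 577 to 911 TPM, with no overlap with the next gene. *Cd48* followed at 230 to 301 TPM, *Slamf6* at 117 to 294, *Cd28* at 134 to 218, *Ly9* at 128 to 191 and *Cd84* at 68.4 to 175 TPM, and each of these ranges overlapped its neighbours. *Icos* spanned 34.7 to 116 TPM, *Cd226* 39.3 to 73.9 and *Slamf1* 15.0 to 58.9 TPM, and *Slamf7* ranked last in all 4 libraries at 8.66 to 18.4 TPM. *Icos* ranked eighth in both Lrig1- libraries and seventh and sixth in the Lrig1+ libraries.

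*Slamf6* is known to be made in forms that differ in the cytoplasmic tail, and its 8 transcripts in the tables fall into those ending in a nearer and in a farther last exon. The coding ends of the 3 transcripts with curated (NM) identifiers are printed because they show what differs between the forms. They are from GENCODE M21 (GRCm38, plus strand of chromosome 1) and run from the last 30 bases of exon 6 to the stop codon. The GENCODE exons were compared with the deposited transcript lengths after their outer ends were set to the deposited positions. For NM_001347187 the exon that it skips was also left out. The capitals mark the last coding exon, 171942578 to 171942592 for the nearer and 171947999 to 171948073 for the farther one.
NM_030710: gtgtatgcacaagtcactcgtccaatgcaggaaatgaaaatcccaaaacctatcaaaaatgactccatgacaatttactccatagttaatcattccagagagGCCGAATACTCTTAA
NM_001347186: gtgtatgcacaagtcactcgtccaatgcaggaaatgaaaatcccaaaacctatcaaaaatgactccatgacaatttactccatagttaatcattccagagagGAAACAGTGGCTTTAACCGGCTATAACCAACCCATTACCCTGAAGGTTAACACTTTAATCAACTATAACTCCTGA
NM_001347187: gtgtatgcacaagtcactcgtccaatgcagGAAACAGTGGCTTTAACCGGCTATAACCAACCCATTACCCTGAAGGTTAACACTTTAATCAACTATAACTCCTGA
The first 2 share an exon of 72 bases at 171941625 to 171941696, after which the nearer end adds 15 bases and the farther end 75 bases, stop codon included. The third skips the 72 bases.

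The higher *Slamf6* level in Lrig1+ cells lay mostly in some of the transcripts with the nearer end. NM_030710 had 3890 and 3976 estimated counts in Lrig1+ cells of sets 1 and 2 and 1337 and 1205 in Lrig1- cells. NM_001347186 had 3389 and 6069 counts against 3067 and 4706, and NM_001347187 had 1325 and 2341 against 715 and 779. XM_006496884, a predicted transcript with the nearer end, had 2935 and 3113 against 950 and 789. Scaled to library size, NM_030710 was 2.68 and 3.10 times as high and XM_006496884 2.85 and 3.71 times. The rest of the nearer end did not share this rise in set 1. There XM_011238824, XM_006496886 and XM_011238825 were 0.787, 0.836 and 1.08 times as high, and in set 2 they were 1.28, 1.73 and 1.41 times. Of those with the farther end, NM_001347186 was 1.02 and 1.21 times as high and NM_001347187 1.71 and 2.83 times. XR_373611, also with the farther end, had few counts (102 and 98 against 130 and 40) and was 0.722 and 2.30 times as high. The 5 transcripts with the nearer end held 61.6% and 47.6% of the *Slamf6* counts in Lrig1+ cells and 44.9% and 30.1% in Lrig1- cells. The share was thus 16.7 percentage points higher in set 1 and 17.5 in set 2, while Lrig1+ cells of set 2 and Lrig1- cells of set 1 were close. In a test of transcript usage within genes (edgeR's diffSpliceDGE), chosen after the values were seen, 1 of 37400 transcripts was called without the set term (0.00267%) and 4 with it (0.0107%), and none of the 38 receptor transcripts tested was among them. NM_030710 had an adjusted p of 1.0 in both fits. With the most abundant *Slamf6* transcript in place of the gene sum, NM_001347186, the log2 fold change of the gene was 0.15 in place of 0.83. The counts of single transcripts are StringTie's estimates, and these transcripts share most of their exons.

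**Figure D3:**
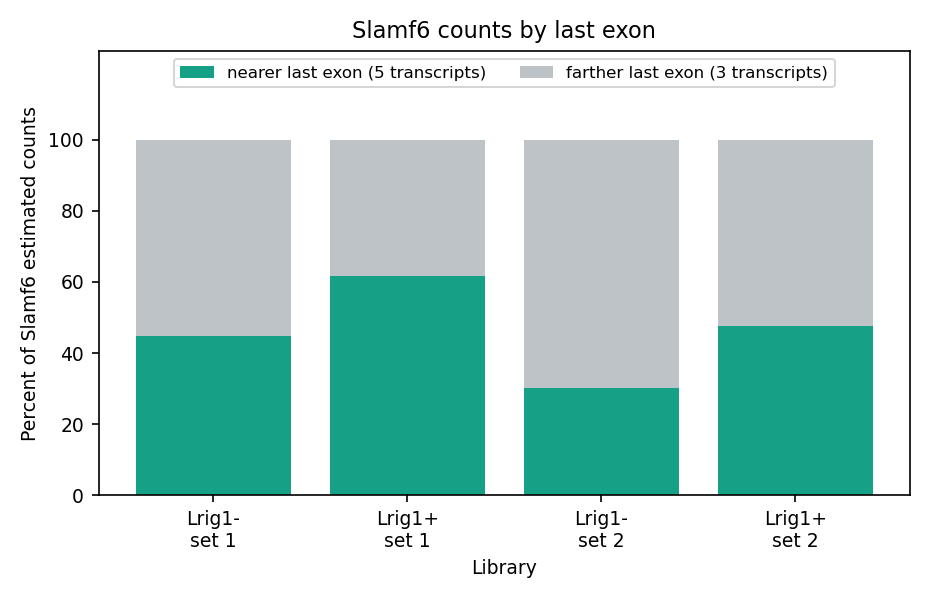
Percent of the *Slamf6* estimated counts on the 5 transcripts with the nearer last exon (green) and the 3 with the farther one (grey) in each library. The nearer end holds 44.9% in Lrig1- and 61.6% in Lrig1+ cells of set 1, and 30.1% and 47.6% in set 2.

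Other receptors also had several transcripts. For *Slamf7*, NM_144539 had 57 and 396 counts in Lrig1+ cells of sets 1 and 2 and 1 and 86 in Lrig1- cells, and NM_001347184, which starts farther inside the gene, had 671 and 390 against 711 and 753. A non-coding *Ly9* transcript, NR_102726, took 21.9% and 28.9% of the *Ly9* counts in set 1 and 52.5% and 56.7% in set 2, where the first value is that of Lrig1+ cells. Its share was thus higher in set 2 and, within each set, lower in Lrig1+ cells. For *Slamf1*, NM_013730 took 66.7% to 78.2% of the counts in every library.

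The promoters of *Slamf1* and *Slamf6*, which rose, and of *Cd84*, which lies between them and did not pass the test, are printed as the 250 bases before the start site (RefSeq, GRCm38.p6, plus strand), at chr1:171766882-171767131, chr1:171917212-171917461 and chr1:171839447-171839696. A RefSeq promoter was matched for 5 of the 10 genes. Capitals mark exact matches, on both strands, to 3 short motifs of factors known from T cells. They are TGTGGT for RUNX factors, GGAAGT for ETS factors and TGANTCA for AP-1.
Slamf1: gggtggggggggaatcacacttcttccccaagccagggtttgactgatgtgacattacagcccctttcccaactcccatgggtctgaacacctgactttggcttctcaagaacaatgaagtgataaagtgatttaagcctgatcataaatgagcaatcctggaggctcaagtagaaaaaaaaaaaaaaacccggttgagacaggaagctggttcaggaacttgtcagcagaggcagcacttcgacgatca
Slamf6: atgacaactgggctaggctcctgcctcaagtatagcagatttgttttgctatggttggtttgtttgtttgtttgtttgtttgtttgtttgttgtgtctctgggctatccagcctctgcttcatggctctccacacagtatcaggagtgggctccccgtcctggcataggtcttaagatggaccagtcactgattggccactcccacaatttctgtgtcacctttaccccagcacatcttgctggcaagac
Cd84: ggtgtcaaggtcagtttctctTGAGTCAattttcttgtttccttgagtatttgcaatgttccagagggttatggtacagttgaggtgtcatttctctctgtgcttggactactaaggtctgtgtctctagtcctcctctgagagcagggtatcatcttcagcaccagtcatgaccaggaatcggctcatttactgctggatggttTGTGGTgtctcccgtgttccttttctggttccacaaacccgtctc
The windows of *Slamf1* and *Slamf6* hold no exact match to the 3 motifs, and other forms of these sites were not sought. That of *Cd84* holds the RUNX and the AP-1 motif once each. That of *Cd48* holds the RUNX motif once and that of *Slamf7* the AP-1 motif once. Over all 32851 promoter windows, 14.0% hold the RUNX motif, 19.7% the ETS motif and 6.75% the AP-1 motif. The motifs do not overlap one another in these windows.

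The genes around the SLAM family were compared in the same way. The stretch from *Cd244a* to *Slamf8* spans 1032.2 kb and holds 9 SLAM family genes and 35 other annotated genes, of which 12 averaged 1 CPM or more. Of these 12, 2 rose (*Igsf8* and *Kcnj10*), 4 fell (*Pea15a*, *Pigm*, *Tagln2* and *Gm37065*) and 6 did not pass the test (*Vangl2*, *Ncstn*, *Copa*, *Pex19*, *Gm10171* and *Dcaf8*), beside 14.6% and 12.8% of all tested genes that rose and fell. *Kcnj10* was low, at 2.0 and 5.55 CPM in Lrig1+ cells of sets 1 and 2 against 0.209 and 2.67 CPM. Its groups overlapped, while those of *Igsf8* did not. *Ncstn* and *Copa*, which follow *Slamf6* and *Vangl2*, had log2 fold changes of -0.0056 and 0.028, and *Dcaf8* had 0.095. *Gm37065*, a long non-coding RNA gene at chr1:171913532-171919356, overlaps the start of *Slamf6* and covers the *Slamf6* promoter window printed above. It fell by 0.80 and was at 1.86 and 3.41 CPM in Lrig1+ cells against 2.80 and 6.80 CPM, with overlapping groups.

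**Figure D4:**
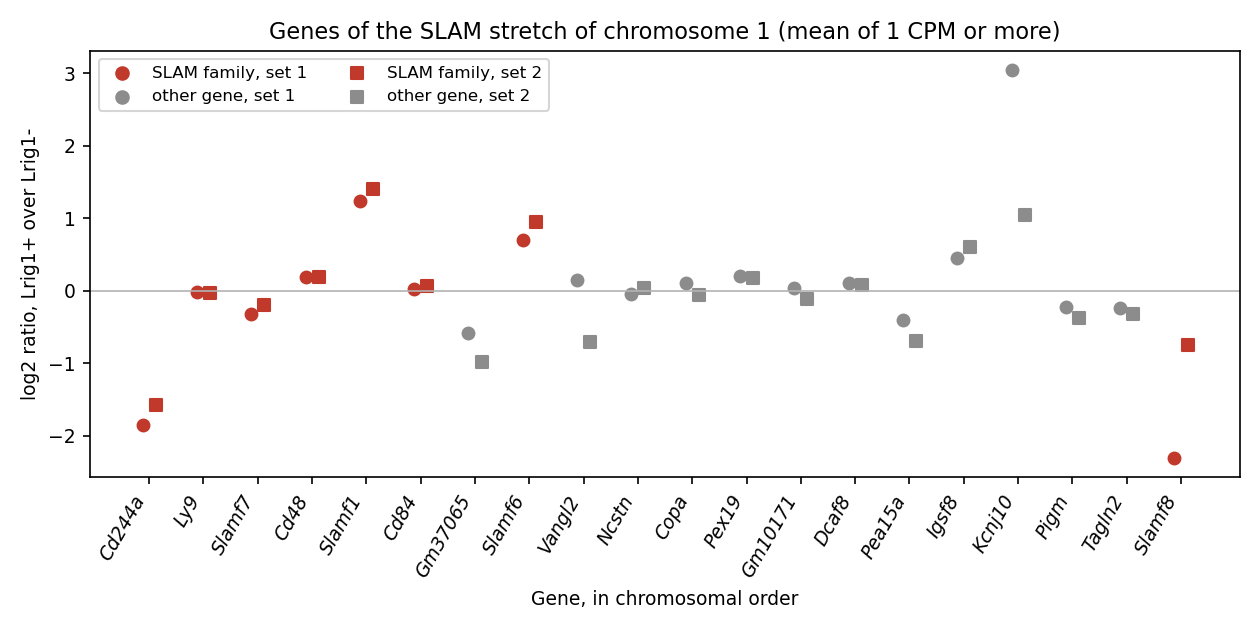
Log2 ratio of Lrig1+ to Lrig1- in set 1 (circles) and set 2 (squares) for genes of the SLAM stretch of chromosome 1 that averaged 1 CPM or more, in chromosomal order, with SLAM family genes in red. *Slamf1* and *Slamf6* stand above 0 in both sets with *Cd84* near 0 between them, and *Cd244a* and *Slamf8* stand below 0.

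The other 3 SLAM family genes were low and lower in Lrig1+ cells in both sets. *Cd244a*, which encodes the receptor for CD48 of natural killer and memory T cells, fell by 1.74 on the log2 scale (adjusted p = 0.00371), at 1.08 and 1.15 CPM against 3.97 and 3.50 CPM. *Slamf8* was at 0.308 and 1.43 CPM against 1.67 and 2.43 CPM, and *Slamf9* at 0.212 and 0.627 CPM against 0.460 and 1.61 CPM, with adjusted p of 0.0508 and 0.0886. The natural killer markers were lower in Lrig1+ cells in 5 of 6 cases, as were the dendritic cell markers in 4 of 5, and the part of these cells in the differences of the 3 genes was not tested.

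The counts of the lists that follow stand beside the same 14.6% of all tested genes that rose and 12.8% that fell. Of the 7 genes for SLAM adaptors and enzymes, 6 were tested, 3 rose and 0 fell. *Sh2d1a*, which encodes SAP, was at 44.3 and 102 CPM in Lrig1+ cells and at 24.6 and 56.3 CPM in Lrig1- cells and rose by 0.85 (adjusted p = 0.000281). Its ratio was 0.85 in both sets, although the groups overlapped between sets. *Ptpn11*, which encodes the phosphatase SHP-2, rose by 0.78 without overlap (219 and 162 CPM against 127 and 94.8 CPM), and *Fyn*, the kinase that SAP recruits, rose by 0.29 (adjusted p = 0.0455). *Inpp5d* and *Ptpn6*, which encode the phosphatases SHIP-1 and SHP-1, had log2 differences of -0.038 and -0.18 and did not pass. The SAP relatives *Sh2d1b1* and *Sh2d1b2* were near the floor, at 0.115 to 1.30 CPM and at 0 to 0.0926 CPM.

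Of the 6 ligand genes, 5 were tested, 3 rose and 2 fell, although these ligands are known best from the cells that T cells meet. *Cd80* was at 6.52 and 6.70 CPM in Lrig1+ cells and at 2.38 and 1.68 CPM in Lrig1- cells, and *Cd86* at 19.5 and 30.0 CPM against 5.97 and 12.1 CPM. Both bind CD28, and they rose by 1.72 and 1.50. *Nectin2* rose from a very low level, at 1.50 and 1.83 CPM against 0 and 0.167 CPM. *Icosl*, the ligand of ICOS, fell by 0.74 (12.6 and 15.0 CPM against 19.5 and 26.9 CPM), and *Pvr*, the main ligand of CD226, fell by 0.68 (45.5 and 29.4 CPM against 64.8 and 53.3 CPM). *Nectin3* was at 0 to 0.104 CPM and was not tested. *Cd80*, *Cd86* and *Icosl* are also made by B cells, myeloid cells and dendritic cells, whose marker sums are given above and whose part here was not tested.

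Of the 4 receptors that compete for the same ligands, 3 rose. *Ctla4*, which binds CD80 and CD86 in place of CD28, was at 301 and 211 CPM in Lrig1+ cells and at 31.3 and 16.9 CPM in Lrig1- cells, and rose by 3.45 on the log2 scale. *Tigit*, which competes with CD226 for the poliovirus receptor, was at 109 and 241 CPM against 17.4 and 27.2 CPM and rose by 2.91. *Cd96* rose by 0.34 (adjusted p = 0.0155) with overlapping groups, and *Pvrig* had a difference of 0.034.

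Of the 13 genes for signalling below CD28 and ICOS, 0 rose and 4 fell. *Grap2*, an adaptor that binds CD28, was at 442 and 212 CPM in Lrig1+ cells and at 711 and 422 CPM in Lrig1- cells and fell by 0.84 (adjusted p = 0.00118). *Pik3cd*, the catalytic subunit of phosphoinositide 3-kinase found mainly in leukocytes, fell by 0.67 (710 and 335 CPM against 1021 and 589 CPM, adjusted p = 0.00403). *Pik3r1* and *Malt1* fell by 0.30 and 0.32. The other 9, among them *Lck*, *Vav1*, *Prkcq* and *Akt1*, did not pass. Among these 13 genes the groups did not overlap for *Prkcq*, at 360 and 354 CPM against 420 and 416 CPM, and overlapped for the rest.

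*Rc3h1*, *Rc3h2* and *Zc3h12a* encode Roquin-1, Roquin-2 and Regnase-1, which shorten the life of the *Icos* transcript. *Rc3h1* and *Rc3h2* fell by 0.36 and 0.30, and *Zc3h12a* rose by 0.43 (adjusted p = 0.0113, 0.0424 and 0.0201). For all 3 the groups overlapped, since set 1 lay above set 2. Of the partners of the CD2 tail, *Cd2ap* fell by 0.72 without overlap (84.0 and 56.2 CPM against 132 and 97.3 CPM), *Cd2bp2* rose by 0.23 (adjusted p = 0.0495) and *Pstpip1* had a difference of 0.011. Of the 2 subunits of LFA-1, an integrin that works with CD226, *Itgal* rose by 0.53 (1188 and 1062 CPM against 824 and 737 CPM), and *Itgb2* had a difference of 0.0125.

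Of 4 genes that costimulation is known to induce, 3 rose. *Il21*, a cytokine of follicular helper T cells, was at 9.88 and 20.9 CPM in Lrig1+ cells and at 1.21 and 3.06 CPM in Lrig1- cells (2.88 on the log2 scale). *Bcl2l1*, a survival gene, rose by 1.17 (44.9 and 61.8 CPM against 22.1 and 24.9 CPM). *Il2* was at 1.73 and 2.96 CPM against 0.418 and 0.352 CPM and rose by 2.56, and *Il4*, at 1.12 and 1.48 CPM against 0.919 and 1.00 CPM, did not pass. Over all 9 lists, 15 of 43 tested genes rose and 10 fell, beside 14.6% and 12.8% of all tested genes, with a median log2 fold change of 0.011.

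**Figure D5:**
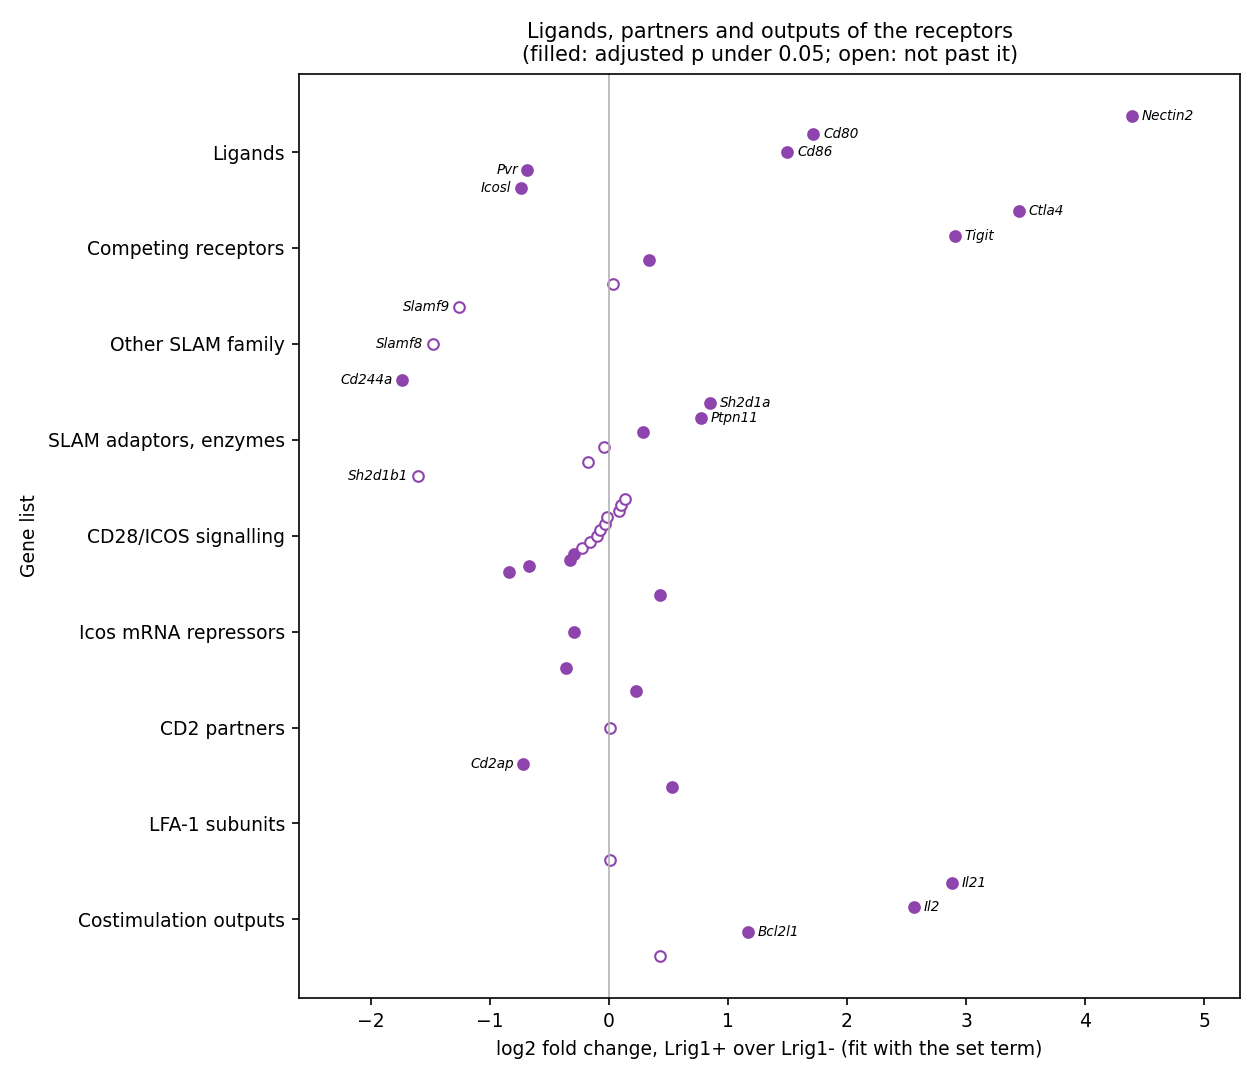
Log2 fold change of Lrig1+ over Lrig1- (fit with the set term) of the tested genes in 9 lists of ligands, partners and outputs; 1 point is 1 gene, filled where the adjusted p was under 0.05. Competing receptors and costimulation outputs have all points above 0, and the CD28 and ICOS signalling genes lie between -0.84 and 0.14.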

How the data were processed

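RNA of CD4+ T cells sorted from the spleen as Lrig1+ or Lrig1- was sequenced as 2 × 50 base pairs from a stranded mRNA kit. The authors trimmed the reads (Trimmomatic 0.38), mapped them with HISAT2 2.1.0 and assembled them with StringTie 2.1.3b, which gave the deposited estimated counts, FPKM and TPM for 129299 RefSeq transcripts. The estimated counts are not normalized, and FPKM and TPM were scaled by transcript length and library by the authors. The build is not given in the sources used here, and all 10 genes have the positions of GRCm38.p6 in RefSeq. The labels list 6 samples, but the group could be read from column names for 4 libraries, and 6 columns of a further table were not used here.

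Estimated counts were summed per gene symbol, filtered (filterByExpr), scaled by TMM and tested with the quasi-likelihood test of edgeR 4.0.16 in R 4.3.3, without a set term as the design fixed and with it as an alternative, at a Benjamini-Hochberg adjusted p under 0.05 over all tested genes. Alternatives were DESeq2 1.42.0, edgeR's exact test, limma 3.58.1 on FPKM, other scalings and filters, single transcripts and leaving out libraries. A prior count of 2 entered the ratios within a set. The procedure was tested on simulated counts. For the test without the set term these held no difference between sets, unlike the data, so they do not show how that test performs here. The receptors and gene lists were chosen with earlier results of these data known, and the genes named are all 10 receptors, of each list up to 5 by p with those under 1 CPM, *Lrig1* and Treg markers, and genes of the SLAM stretch at 1 CPM or more. Further list genes were named after their values were seen, and 2 further genes fixed for the signalling list were left out of it and are not reported here. Tables were read with Python 3.11.15.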

Additional observations from a re-analysis of the deposited data

How the results depend on the processing

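No paired analysis was possible by replicate number, because the columns carry no replicate numbers. The set term instead paired the Lrig1+ and the Lrig1- library of each table. Whether the libraries of a table came from the same sort, animals or day is not known. The set term was the choice that decided the calls. With it, edgeR called 4 receptors higher and 15 and 10 genes of the lists higher and lower, of 2358 and 2056 genes called in all. DESeq2 with the set term called 4 receptors higher, 13 and 13 list genes, and 1848 and 1969 genes, and limma on log2(FPKM + 1) with it called 4, 13 and 7, and 1911 and 1016. Without it, none of the other 14 settings called a receptor. Of these, DESeq2's Wald test called 3 list genes higher, and 260 genes higher and 50 lower in all, and edgeR's exact test called 2 list genes, and 179 and 14 in all. Leaving out 1 library gave 0 to 1 list genes higher, 1 to 88 genes higher and 0 to 2 lower. Over the settings without the set term, the lowest adjusted p was 0.146 for *Slamf1*, 0.249 for *Icos* and 0.763 for *Slamf6*.

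Signs turned for *Ly9*, *Cd84*, *Cd48* and *Cd2*. *Ly9* turned from -0.020 to 0.0295 with limma on log2(FPKM + 1), without and with the set term, to 0.0299 with log2(FPKM + 0.1) and to 0.11 with its most abundant transcript. *Cd84* turned to -0.21 with its most abundant transcript. Leaving out 1 library moved *Ly9* between -0.16 and 0.14, *Cd84* between -0.067 and 0.21, *Cd48* between -0.37 and 0.76 and *Cd2* between -0.17 and 1.00, with the lowest *Cd48* and *Cd2* values when Lrig1+ cells of set 2 were left out. With 1 library left out, the lone library of its group was assumed to vary like the others. The 10 receptors had 973 to 39242 counts per library, and the set term lowered the SE of *Cd2* from 0.60 to 0.086 and of *Cd48* from 0.56 to 0.073.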
